A study of Mus musculus with 5 samples.

Results

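Expression of 10 genes of postmitotic nerve cells is described in pituitaries of e12.5 mouse embryos, out of 20097 gene symbols measured by RNA sequencing. They are Tubb3, Map2, Dcx, Stmn2, Nefl, Nefm, Elavl3, Elavl4, Gap43 and Islr2, taken by name from the deposited table of all genes, and all 10 passed the filter on low values (a mean of at least 1). The list of names was drawn up with earlier results of these libraries known. The first 9 are neuronal markers taken by name, while Islr2 was chosen by its low p-value between the genotypes in these same libraries, so its difference is described without a test. The 2 knockout libraries came from Itgb1 f/f; Pitx1-cre embryos and the 3 control libraries from Itgb1 f/f littermates, all of strain B6;129. Both groups thus carried floxed alleles of Itgb1, the gene for integrin beta 1, and no library with Pitx1-cre alone was analysed here. Pitx1-cre acts in the oral ectoderm and in the pituitary that forms from it. Cells of the dissected tissue in which it does not act keep the gene, and which cells these were was not examined here. The libraries are called by their labels, Itgb1 KO 13 and Itgb1 KO 16 (libraries 13 and 16 from here) and controls 9, 10 and 12.

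Nerve cells leave the cell cycle and then build axons and dendrites from microtubules and intermediate filaments. Proteins that bind microtubules set how stable these are, RNA-binding proteins of the Elav family steer splicing and translation of neuronal messages, and growth cone and surface proteins guide the axon. At this stage the anterior gland is an epithelial pouch next to the infundibulum, an outgrowth of the floor of the diencephalon that forms the posterior lobe. Nerve cells belong to the brain and to cranial ganglia rather than to the pouch, whereas endocrine cells share some of these genes. The labels give the cell type as epithelial pituitary cells, and all 10 genes had reads in every library.

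Promoter sequences are shown for the gene with the highest value in library 16 relative to the median gene (Elavl3), for its close relative Elavl4, and for the gene lowest in both knockout libraries (Islr2). The 250 bases before an annotated transcript start were taken from RefSeq, build GRCm38.p6. These genes lie on the minus strand, at chr9:22052024-22052273 for Elavl3, chr4:110287528-110287777 for one of the Elavl4 starts and chr9:58204320-58204569 for one of the Islr2 starts. Capitals mark 2 motifs searched on both strands, CAGCTG (an E-box, a motif that proneural factors can bind) and CCAAT (read as ATTGG on the other strand), which do not overlap each other here.
Elavl3: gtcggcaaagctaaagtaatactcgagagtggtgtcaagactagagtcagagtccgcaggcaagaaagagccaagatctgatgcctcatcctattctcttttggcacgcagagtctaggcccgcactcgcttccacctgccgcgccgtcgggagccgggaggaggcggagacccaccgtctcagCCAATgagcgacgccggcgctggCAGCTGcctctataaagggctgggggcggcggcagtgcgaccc
Elavl4: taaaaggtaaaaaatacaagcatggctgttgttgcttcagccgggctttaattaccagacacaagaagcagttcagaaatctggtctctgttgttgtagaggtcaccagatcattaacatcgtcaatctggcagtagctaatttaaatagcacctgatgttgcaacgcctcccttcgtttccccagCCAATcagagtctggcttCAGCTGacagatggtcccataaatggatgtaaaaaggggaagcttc
Islr2: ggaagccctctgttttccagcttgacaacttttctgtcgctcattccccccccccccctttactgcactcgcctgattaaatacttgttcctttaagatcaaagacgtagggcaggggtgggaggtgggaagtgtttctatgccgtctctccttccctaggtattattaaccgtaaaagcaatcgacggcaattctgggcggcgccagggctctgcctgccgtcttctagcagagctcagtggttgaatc
The Elavl3 window held CCAAT at -66 and CAGCTG at -43, counted in bases from the transcript start to the first base of the motif. The Elavl4 window shown held them at -64 and -46. Of the other Elavl4 windows, one that overlaps it held both, one held CCAAT alone and one held neither. Neither word was in any of the 3 Islr2 windows. RefSeq windows were matched for 6 of the 10 genes (Tubb3, Map2, Dcx, Elavl3, Elavl4 and Islr2), with 12 windows that partly overlap. CAGCTG was in 3 of the 12 and CCAAT in 6, while 13% and 33.8% of all 32851 windows of this length held them. These are matches of letters and not measured binding.

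Levels are given as tags in every 10000000 of a library (normalised tags below), with no correction for gene length. The reads recovered over listed genes ranged from 4480809 in library 16 to 6143263 in control 12. Receptor genes for smell and pheromones (408 autosomal Olfr and Vmn genes), which most tissues do not express, gave a background of 0.480 normalised tags per kilobase in library 13 and 1.498 in library 16, against 0.259, 0.396 and 0.159 in controls 9, 10 and 12. The median log2 ratio of all genes to the control mean was 0.80 in library 13 and 1.28 in library 16, and 0.97 in the fit of both, so changes are also given relative to that median gene. A second scale has the background subtracted in proportion to region length and the rest divided by TMM factors (scaled level below), which brings the median gene to 0.03. Itgb1 was at 446.36 in library 13 and 186.36 in library 16, against 272.73, 426.36 and 430.91 in the controls. Its scaled level was 276.9 and 120.1, against 398.3, 372.0 and 447.6. Library 13 thus stood above every control on the first scale and below every control on the second. The level of Itgb1 is given for a region of 47.13 kb as a whole, so it does not isolate the deleted part. All 14 pituitary epithelium markers had tags in every library, summing to 2306.36 and 955.45 in libraries 13 and 16, against 710.92 to 1158.19 in the controls. Their scaled sum was 1444.7 and 678.7, against 982.4 to 1115.8, so library 16 lay within the controls before scaling and below them after it.

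**Figure D1:**
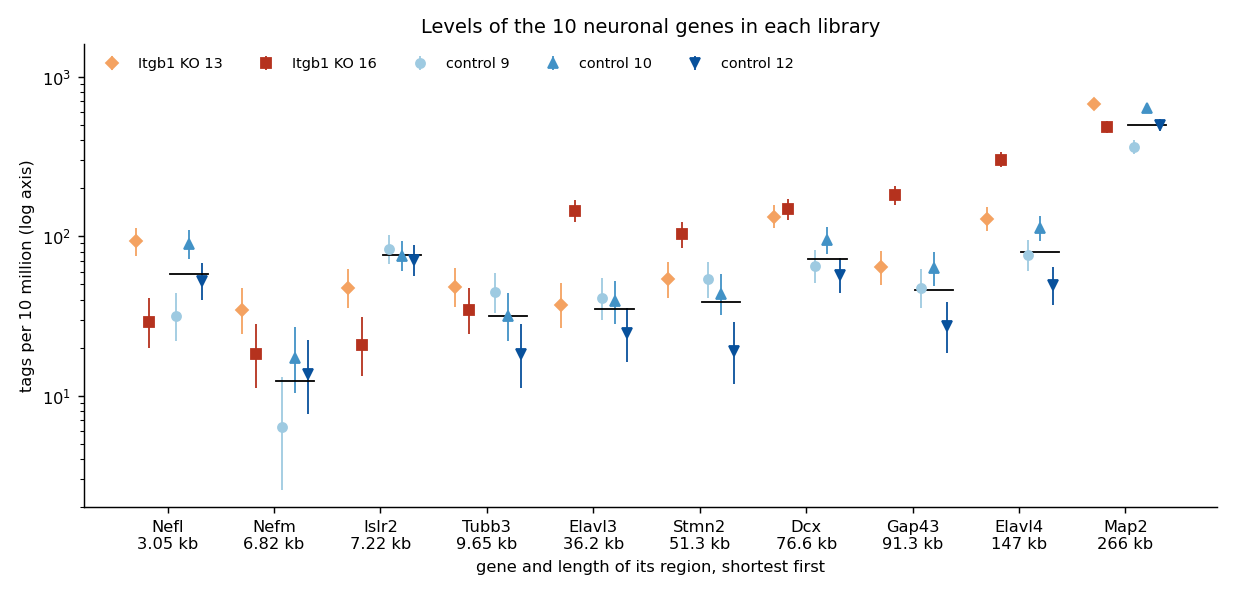
Level of each of the 10 genes in normalised tags, on a log axis, with 1 point per library, bars for the 95% Poisson interval of its count, a line for the control mean, and knockout libraries left of controls. Islr2 has both knockout points below the controls, while Elavl4, Dcx, Nefm and Gap43 have both above them.

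Across the 10 genes both knockout libraries lay above every control for 4 (Elavl4, Dcx, Nefm and Gap43), a position that 50.2% of all 19313 genes shared. Both lay below every control for Islr2 alone, where 0.202% of all genes did, and Islr2 was on the list for that difference. In bulk tissue, fewer cells that express a gene and less RNA per cell cannot be told apart. No gene of the 19313 passed an adjusted p under 0.05 in limma, and neither did any of the 10. Of the 9 genes other than Islr2, 2 (Elavl4 and Gap43) had an unadjusted p under 0.05, both higher, against 29.2% of all genes higher and 0.0207% lower. Their limma adjusted p ran from 0.0972 for Elavl4 to 0.974 for Nefl. On reads recovered from the table, the edgeR quasi-likelihood test called 0 of the 9, with 0 at an unadjusted p under 0.05. Of all 19313 genes, 382 were higher and 96 lower at that unadjusted p. DESeq2 also had 0 of the 9 at an unadjusted p under 0.05, against 247 of all 19313 genes higher and 106 lower. It gave an adjusted p (0.694) to 1 of the 9, and over all genes it called 25 lower. The median change of the 10 genes relative to the median gene was 0.04 on the log2 scale, with 6 genes above the median gene and 4 below. It was -0.45 without library 13, -0.18 without library 16, -0.19 without control 12 and 0.00 without control 9.

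The microtubule genes showed no common order of the groups. Positions of gene regions are in build mm9. Tubb3 (chr8:125936264-125945910), the neuronal beta-tubulin, was at 48.18 normalised tags in library 13 and 34.55 in library 16, against 44.55, 31.82 and 18.18 in controls 9, 10 and 12. Library 13 was just above the highest control and library 16 inside their range, so the groups overlap. The fitted log2 change was 0.45 (SE 0.63), which is -0.52 relative to the median gene. That relative change of Tubb3 was -1.06 without library 13, -0.12 without library 16 and -0.09 without control 9. The scaled level of Tubb3 was 28.5 and 20.9 in libraries 13 and 16, against 64.3, 25.5 and 17.6 in the controls, both inside the control range.

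Map2 (chr1:66222703-66489157), which bundles microtubules in dendrites, was at 676.36 normalised tags in library 13 and 482.73 in library 16, against 362.73, 635.45 and 499.09 in the controls. Library 13 was above the highest control and library 16 within the range. The expected background made up 82.7% of the Map2 level in library 16 and 18.9% in library 13, against 8.50% to 19.02% in the controls. The scaled level was 358.4 in library 13 and 86.6 in library 16, against 449.0, 483.6 and 482.7 in the controls. On that scale both knockout libraries lay below every control for Map2 and Islr2, against 7.69% of 17986 genes, and the 3 controls were close together. Map2 had a log2 change of 0.23 (SE 0.55) on the first scale and -1.41 (SE 0.55) on the scaled one, where limma's adjusted p was 0.836. Of the 9 genes the scaled fit held Map2 alone at an unadjusted p under 0.05, lower, against 0.917% of all genes lower and 1.72% higher. The scaled log2 change of Map2 rested mostly on library 16: it was -2.46 without library 13 and -0.38 without library 16. In limma the adjusted p was 0.0269 without library 13, a fit that called 4.02% of all genes higher and 11.1% lower, and 0.998 without library 16.

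Dcx (chrX:140290785-140367362), the X-linked gene for doublecortin, which stabilises microtubules in migrating young neurons, was at 132.73 normalised tags in library 13 and 147.27 in library 16, against 65.45, 94.55 and 57.27 in the controls. Both knockout libraries were above every control. Its change equalled that of the median gene, with a relative log2 change of 0.00. Scaled levels of Dcx were 62.7 in library 13, inside the control range, and 33.8 in library 16, below it, against 69.7, 58.6 and 47.6 in the controls. The labels give no sex for the embryos.

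Stmn2 (chr3:8510327-8561604), which encodes a stathmin that binds tubulin in growing axons, was at 53.64 normalised tags in library 13 and 102.73 in library 16, against 53.64, 43.64 and 19.09 in the controls. Library 13 held the same 59 reads as control 9, while library 16 was above every control. Expected background was 74.8% of the level in library 16. Stmn2 had a scaled level of 18.96 and 26.9 in libraries 13 and 16, against 61.7, 21.3 and 11.5 in the controls, all within the control range.

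The neurofilament genes have the shortest regions, and expected background in library 16 was 15.7% of the level of Nefl and 56.2% of that of Nefm. Nefl (chr14:68702741-68705794), for the light chain of the axonal neurofilament, was at 92.73 normalised tags in library 13 and 29.09 in library 16, against 31.82, 89.09 and 52.73 in the controls. The libraries of the knockout group lay on either side of the control range. The 95% Poisson intervals, which cover counting error only, were 75.6 to 112.6 in library 13 and 19.9 to 41.1 in library 16. Scaled levels of Nefl were 59.6 in library 13, within the controls, and 25.4 in library 16, below them, against 47.4, 80.2 and 55.2.

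Nefm (chr14:68742609-68749428), for the medium chain, was at 34.55 normalised tags in library 13 and 18.18 in library 16, against 6.36, 17.27 and 13.64 in the controls. Both knockout libraries were above every control, library 16 by 1 read over control 10. Counting intervals were 24.4 to 47.4 in library 13 and 11.1 to 28.1 in library 16, so that of library 16 spans the values of controls 10 and 12. For Nefm the scaled level was 20.4 in library 13, above every control, and 8.26 in library 16, within them, against 7.02, 13.3 and 13.3. The Nefm region shares 53 bp with the row of A230070E04Rik. All rows are listed on the plus strand, so reads of overlapping genes cannot be told apart.

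The RNA-binding genes Elavl3 and Elavl4 were highest in library 16. Elavl3 (chr9:21819849-21856067) was at 37.27 normalised tags in library 13 and 144.55 in library 16, against 40.91, 39.09 and 24.55 in the controls. The knockout libraries thus differed from each other by more than the controls did, and library 13 lay within the controls. Background accounted for 37.5% of the level in library 16, the lowest share there among the 5 genes with regions of 36.2 to 147.4 kb. The scaled level of Elavl3 was 12.99 in library 13, below every control, and 93.7 in library 16, above every control, against 48.2, 22.6 and 19.9. Its log2 change relative to the median gene was 0.12 with both libraries, -0.68 without library 16 and 0.77 without library 13.

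Elavl4 (chr4:109876742-110024116) was at 128.18 normalised tags in library 13 and 301.82 in library 16, against 76.36, 111.82 and 49.09 in the controls. Both knockout libraries were above every control, with a log2 change of 1.38 (SE 0.56) and a change relative to the median gene of 0.41. After scaling Elavl4 was at 37.5 in library 13 and 84.1 in library 16, against 58.4, 48.8 and 27.1, so that library 13 moved inside the control range and library 16 stayed above it.

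Gap43 (chr16:42249074-42340364), a membrane protein of growth cones, followed Elavl4. It was at 63.64 normalised tags in library 13 and 180 in library 16, against 47.27, 62.73 and 27.27 in the controls. Library 13 exceeded the highest control by 1 read, and library 16 was far above it. The log2 change was 1.29 (SE 0.58) and 0.32 relative to the median gene. Scaled Gap43 was at 12.9 in library 13, below every control, and 44.8 in library 16, above every control, against 36.1, 24.3 and 13.5 in the controls. The 3 genes with scaled levels above every control in library 16 were Elavl3, Elavl4 and Gap43, against 44% of all genes, and none of the 10 was above every control in both knockout libraries on that scale, against 8.76% of all genes.

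Islr2, a membrane protein with leucine-rich repeats and an immunoglobulin domain that acts in axon growth, was at 47.27 normalised tags in library 13 and 20.91 in library 16, against 82.73, 75.45 and 70.91 in the controls. Both knockout libraries were below every control, the position for which the gene was chosen, and library 16 was the lower of them. The fitted log2 change was -1.25 (SE 0.59), or -2.22 relative to the median gene. Scaled levels of Islr2 were 28.6 in library 13 and 10.5 in library 16, against 123.6, 66.2 and 73.7 in the controls. It lay below the median gene with each library left out, with relative changes between -3.10 without library 13 and -1.48 without library 16. These fits reuse the libraries in which Islr2 was chosen for being low, so they are no test of it.

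The value of Islr2 belongs to the longer of 2 rows with that name. The row used spans chr9:58044504-58051726 in build mm9, and a shorter row (chr9:58051504-58056615, 5112 bp) shares 223 bp with it. The shorter row held 11.82 normalised tags in library 13 and 14.55 in library 16, against 3.64, 12.73 and 0.91 in the controls. With that row in its place the relative log2 change of Islr2 was 0.55, so the lower level was seen in the longer row only. The shorter row held few reads, 13 and 16 in libraries 13 and 16, against 4, 14 and 1 in the controls. Expected background was 7.66 of its 14.55 normalised tags in library 16. Its positive change thus rests on values near the floor.

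**Figure D2:**
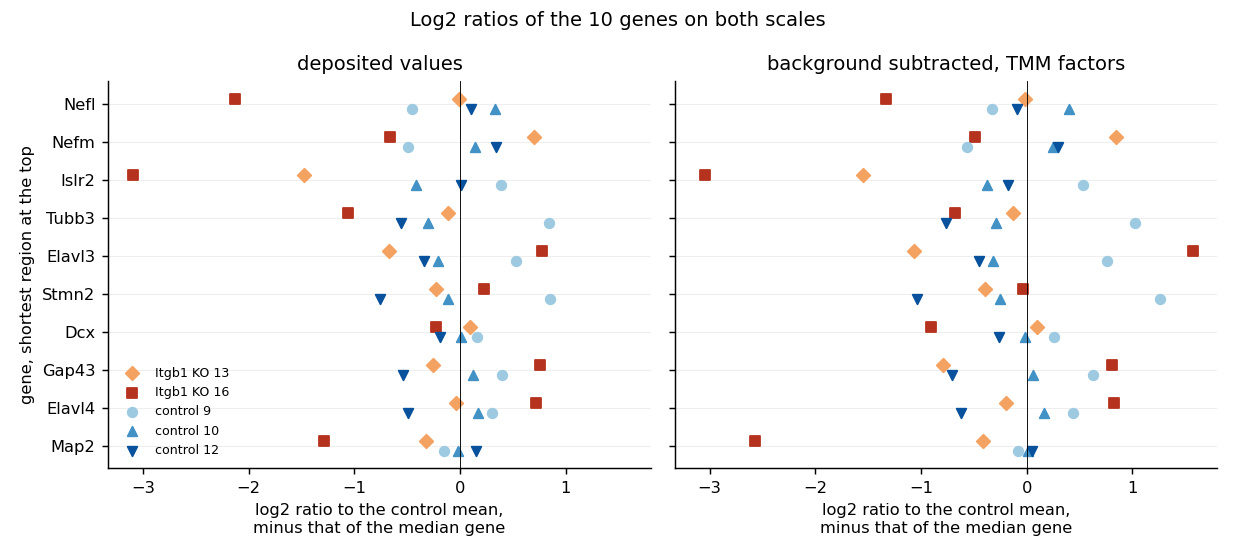
Log2 ratio of each gene to the control mean, minus that of the median gene, in every library, for deposited values (left) and for values with background subtracted and TMM factors (right). Map2 in library 16 lies at -1.29 on the left and -2.57 on the right, and Islr2 is low in both knockout libraries in both panels.

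Across the 10 genes, scaled levels placed library 13 above every control for Nefm alone (22.5% of all genes) and below for Elavl3, Map2, Gap43 and Islr2 (20.9%). Library 16 was above for Elavl3, Elavl4 and Gap43, and below for Dcx, Map2, Nefl and Islr2 (37.9%). Before scaling, library 13 was above every control for 7 of the 10 (73.3% of all genes) and below for Islr2 (1.46%). Library 16 was then above for 6 (72.9%) and below for Nefl and Islr2 (7.86%). Without library 16 the log2 change relative to the median gene was -0.04 for Elavl4 and -0.26 for Gap43, each with its sign turned. For Nefm it was -0.67 without library 13 and -0.16 without control 9, also turned. It was -0.29 for Stmn2 without control 12 and -0.23 without library 16, and for Dcx -0.23 without library 13 and -0.08 without control 12. The levels of the 10 genes summed to 1314.55 normalised tags in library 13 and 1461.83 in library 16, against 811.82, 1200.91 and 831.82 in the controls. Summed scaled levels were 640.7 and 434.9, against 965.6, 844.3 and 762.1. The sum was thus above every control before scaling and below every control after it. The gene Rn45s held 14.2% and 8.88% of all tags in libraries 13 and 16, against 22.2%, 16.8% and 23.5% in the controls. As a rate among reads of listed genes other than Rn45s, the unscaled sum was 36.70 and 45.89, against 26.55, 36.69 and 25.70. By that rate library 13 was level with control 10, while library 16 stayed above every control. The effect of the Rn45s share on single genes was not tested. Map2 made up much of the scaled sum, and without it the other 9 genes summed to 282.3 and 348.3, against 516.5, 360.8 and 279.4, so that both libraries were within the controls. The scaled sum of all genes tested was also below every control in both knockout libraries.

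**Figure D3:**
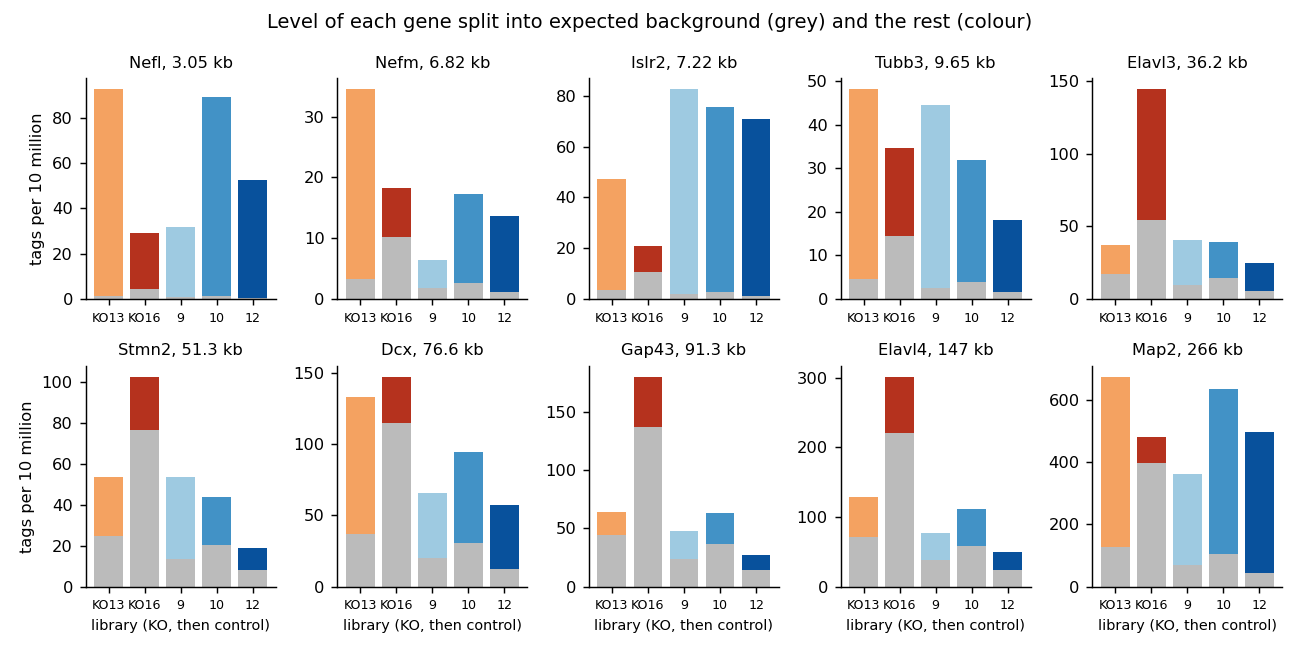
Deposited level of each gene and the part expected from background, in normalised tags, for every library. In library 16 the expected part reaches 82.7% for Map2 and 15.7% for Nefl.

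By its construction the expected background grew with region length. The regions ran from 3.05 kb for Nefl, 6.82 kb for Nefm, 7.22 kb for Islr2 and 9.65 kb for Tubb3 to 147.4 kb for Elavl4 and 266.5 kb for Map2, and they span introns. The longest annotated transcript covered 1.56% of the length of the Gap43 region, 2.35% for Map2 and 2.82% for Elavl4, against 54.0% for Nefm and 59.6% for Islr2, while for Nefl it was longer than the region. Expected background in library 16 was 73.2% of the level for Elavl4, 76.0% for Gap43, 77.9% for Dcx, 41.8% for Tubb3 and 51.8% for Islr2. Across the 10 genes the Spearman rho between region length and log2 ratio was -0.24 in library 13 and 0.44 in library 16 (n = 10 genes of the same libraries, a description). Over all genes these were 0.01 and 0.14. In library 16 the 3 highest genes, Elavl3, Gap43 and Elavl4, have regions of 36.2 kb or more, and of the 4 lowest, Islr2, Nefl and Tubb3 have regions under 10 kb and Map2 has the longest.

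**Figure D4:**
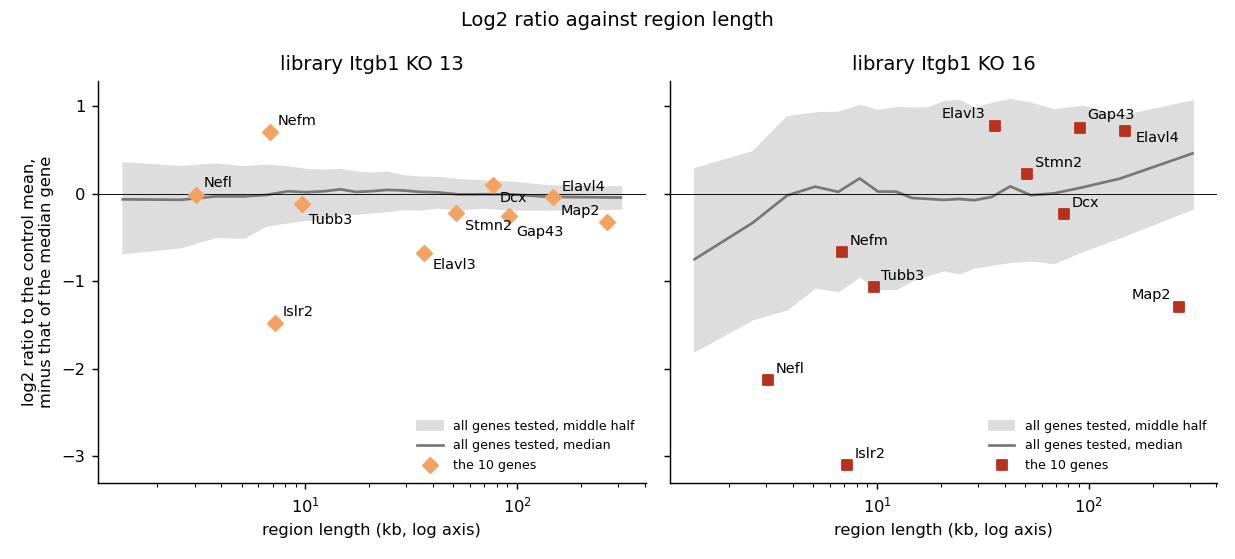
Log2 ratio to the control mean, minus that of the median gene, against region length on a log axis, for library 13 (left) and library 16 (right), with the median and the interquartile range of all genes of like length. Islr2 and Map2 lie below that range in both libraries, Elavl3, Stmn2 and Gap43 do so in library 13, and Nefl does in library 16.

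Among the controls, levels per kilobase of region set the genes in order. Nefl had 18.95 ± 9.49 normalised tags per kilobase (SD, n = 3), Islr2 10.6 ± 0.83, Tubb3 3.27 ± 1.37, Map2 1.87 ± 0.51 and Nefm 1.82 ± 0.81. Below these came Elavl3 at 0.96 ± 0.25, Dcx at 0.95 ± 0.26, Stmn2 at 0.76 ± 0.35, Elavl4 at 0.54 ± 0.21 and Gap43 at 0.50 ± 0.19. Of neighbours in this order, only Islr2 and Tubb3 had control values that did not overlap. Long regions are mostly intron, which lowers such a value. Control 12 was the lowest control for 7 of the 10 genes and control 9 for Map2, Nefl and Nefm. Control 10 was the highest for 6 and control 9 for 4. In recovered reads Islr2 varied least among the controls, with a chi-square of its 3 counts, divided by the degrees of freedom, of 0.51. Islr2 was chosen by its low p-value in these libraries, which favours genes with close control values. Its small spread is thus partly set by that choice. The other 9 genes ranged from 2.54 for Elavl3 to 41.0 for Map2, and counting noise alone gives values near 1. On scaled levels this order did not hold, since Islr2 was at 87.9 ± 31.2 in the controls, against 471.8 ± 19.7 for Map2 and 58.7 ± 11.05 for Dcx (SD, n = 3).

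The authors' deposited table of changed genes lists Elavl3 and Dcx as higher and none of the other 8, Islr2 included. It lists 2.84% of the 20097 symbols as higher and 2.25% as lower. In the authors' deposited table Elavl3 has a log2 fold change of 1.74 with a p-value of 0.0011, and genotype values of 20 for KO and 6 for WT. For Dcx the authors' deposited table gives a log2 fold change of 1.58 with a p-value of 0.00125, and 21 for KO and 7 for WT. Its genotype values carry no unit, and the libraries behind them are not stated. In the all-gene table Elavl3 was within the controls in library 13, whereas Dcx was above them in both knockout libraries before scaling.

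Other genes of neurons and of neighbouring cells are given as lists, chosen like the 10 genes with earlier results known. Limma called 0 genes of these lists at an adjusted p under 0.05. Of 32 other cytoskeleton, growth cone and adhesion genes of neurons, 8 had an unadjusted p under 0.05 on the higher side (29.2% of all genes) and 0 on the lower. They had 14 genes above and 18 below the median gene, and a median relative log2 change of -0.03. Their members of highest level per kilobase were the beta-tubulin genes Tubb2b, at 204.55 and 45.45 normalised tags in libraries 13 and 16 against 80.91, 114.55 and 91.82 in the controls, and Tubb2a. Tubb2a was at 87.27 and 28.18, against 54.55, 62.73 and 52.73. Both were above every control in library 13 (73.3% of all genes) and below every control in library 16 (7.86%), the split seen for Nefl. After scaling Tubb2a in library 13 was at 56.1, inside the control range, while Tubb2b was at 132.9, still above it. The split does not stand for the list. Of its 32 genes, 13 were above every control in both knockout libraries before scaling (50.2% of all genes) and 0 below.

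The list of paralogs also holds genes related by function only, such as Marcks. Its 23 measured genes had 3 at an unadjusted p under 0.05, all higher (29.2% of all genes). They had 4 genes above and 19 below the median gene, and a median relative log2 change of -0.61. Tubb5, a beta-tubulin of dividing cells as well as neurons, was at 2040 and 355.45 normalised tags in libraries 13 and 16, against 695.45, 1071.82 and 1018.18 in the controls. Marcks, a membrane protein that like Gap43 is a target of protein kinase C, was at 639.09 and 148.18, against 349.09, 474.55 and 365.45. Both were above every control in library 13 (73.3% of all genes) and below every control in library 16 (7.86%), a split that Tubb3 and Gap43 did not show. Of the 23 genes, 6 were above every control in both knockout libraries (50.2% of all genes) and 0 below. Tubulin genes resemble one another in sequence, and how reads that match several of them were assigned is not stated in the sources used here.

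Of 16 genes of the synapse and of excitability, 5 had an unadjusted p under 0.05, all higher (29.2% of all genes), and the median relative log2 change was -0.08. Vamp2, a fusion protein of synaptic vesicles, was at 34.55 and 32.73 normalised tags in libraries 13 and 16, against 10.91, 28.18 and 30 in the controls. Rab3a, which tethers these vesicles, was at 18.18 and 12.73, against 9.09, 15.45 and 6.36. Vamp2 was thus above the controls in both libraries, as 50.2% of all genes were, and Rab3a in library 13 only, as 73.3% of all genes were there. After scaling Vamp2 was at 21.6 and 29.2, against 15.5, 24.6 and 31.2 in the controls. Rab3a was then at 10.9 and 8.22, against 12.6, 12.9 and 6.18, so both genes were within the controls in both libraries.

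Lists for other cells that the tissue could hold took differing positions beside the 10 genes, and their part in the results was not tested. The 20 neural progenitor and proneural genes had 0 at an unadjusted p under 0.05, against 29.2% of all genes higher and 0.0207% lower. Their median relative log2 change was -0.48. Among them Sox11 was at 531.82 and 161.82 normalised tags in libraries 13 and 16, against 250, 324.55 and 302.73 in the controls. Its relative Sox4 was at 234.55 and 62.73, against 95.45, 138.18 and 92.73. Both factors drive neuronal differentiation, and both were above the controls in library 13 (73.3% of all genes) and below them in library 16 (7.86%). Of the 20 genes, 6 were above every control in both knockout libraries (50.2% of all genes) and 0 below.

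The infundibulum and ventral diencephalon list had 19 genes, of which 18 were tested, 4 of them below every control in both knockout libraries (0.202% of all genes) and 7 above (50.2%), and the median relative log2 change was -0.60. Its levels summed to 1472.71 and 2192.74 normalised tags in libraries 13 and 16, against 999.08, 1723.65 and 1413.66 in the controls. The scaled sum was 692.1 and 959.0, against 1186.6 to 1349.1. Library 13 was within the controls and library 16 above them before scaling, and both were below every control after it, as was the sum of all genes. Tbx3, a T-box factor of the infundibulum, was at 97.27 and 48.18 normalised tags, against 129.09, 157.27 and 142.73, below every control in both. Six3, a homeobox factor of the forebrain, was at 79.09 and 20.91, against 45.45, 54.55 and 60. Hmx3 was at 0 in library 13 and in controls 9 and 12.

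The cranial sensory and migrating neuron list (13 tested) had a median relative log2 change of 0.10, with 4 genes at an unadjusted p under 0.05, all higher (29.2% of all genes). Its summed scaled level was 284.8 in library 13 and 796.5 in library 16, against 299.5 to 413.9 in the controls. Library 16 was thus highest, as for Elavl3, Elavl4 and Gap43, and 44% of all genes were above every control there after scaling. Of the sum in library 16, Ntrk3 (384.9 kb) held 323.2 and Runx1 (223.8 kb) 266.2. Isl1, a LIM homeobox factor of sensory and motor neurons, was at 80 and 70.91 normalised tags, against 59.09, 65.45 and 53.64, and Pou4f1, a sensory neuron factor, at 17.27 and 19.09, against 7.27, 15.45 and 9.09. Both genes were above every control in both libraries before scaling, as 50.2% of all genes were. After scaling Isl1 was at 48.9 and 57.1, against 86.1, 55.9 and 54.9 in the controls. Pou4f1 was then at 9.76 and 12.2, against 9.18, 12.3 and 8.79, so neither gene was above every control. Tlx3 was at 0 in library 13 and in controls 10 and 12.

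Of the 13 listed genes of glia and Schwann cell precursors, 11 were tested, with 4 at an unadjusted p under 0.05, all higher (29.2% of all genes), and a median relative log2 change of 0.23. Their summed scaled level was 251.8 and 284.2, against 216.4 to 224.5 in the controls. Erbb3, a neuregulin receptor, was at 97.27 and 63.64 normalised tags, against 33.64, 58.18 and 48.18, and the glutamate transporter gene Slc1a3 at 254.55 and 226.36, against 87.27, 160.91 and 150.91. Both were above every control in both libraries before scaling, as 50.2% of all genes were. After scaling Erbb3 was at 57.5 and 36.0, against 43.8, 46.1 and 47.7, and Slc1a3 was within the controls in both libraries. Foxd3 was at 0 in library 16 and in controls 10 and 12, and Olig1 in library 13 and control 12.

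The 14 neuroendocrine granule genes had a median relative log2 change of -0.24, with 3 genes higher and 1 lower at an unadjusted p under 0.05 (29.2% and 0.0207% of all genes). Scg2, for secretogranin II, was at 81.82 in library 13 and 234.55 in library 16, against 161.82, 335.45 and 185.45 normalised tags in the controls. Chga, for chromogranin A, was at 9.09 and 74.55, against 44.55, 93.64 and 70.91. Both were below every control in library 13 (1.46% of all genes) and within the controls in library 16. After scaling Scg2 in library 16 stayed within the controls. Chga was then at 63.0 there, just below the controls at 64.4, 82.1 and 73.4.

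The pituitary epithelium, head mesenchyme and endothelium lists had median relative log2 changes of -0.45 (14 genes), -1.04 (12 genes) and -0.04 (12 genes). At an unadjusted p under 0.05 they held 2, 2 and 3 genes, all higher (29.2% of all genes). In these lists 3, 4 and 9 genes were above every control in both knockout libraries (50.2% of all genes), and 0 were below. Krt18, an epithelial keratin, was at 176.36 and 58.18 normalised tags in libraries 13 and 16, against 70.91, 114.55 and 93.64, and Six6, a pouch homeobox factor, at 282.73 and 54.55, against 71.82, 153.64 and 119.09. Both were above the controls in library 13 (73.3% of all genes) and below them in library 16 (7.86%). The collagen gene Col3a1 was at 596.36 and 181.82, against 277.27, 553.64 and 432.73, and the mesenchymal factor Foxd1 at 14.55 and 9.09, against 10, 27.27 and 19.09. In the endothelial list Ramp2, a receptor partner, was at 17.27 and 6.36, against 6.36, 10.91 and 12.73, and the tight junction gene Cldn5 at 9.09 and 3.64, against 1.82, 5.45 and 6.36.

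**Figure D5:**
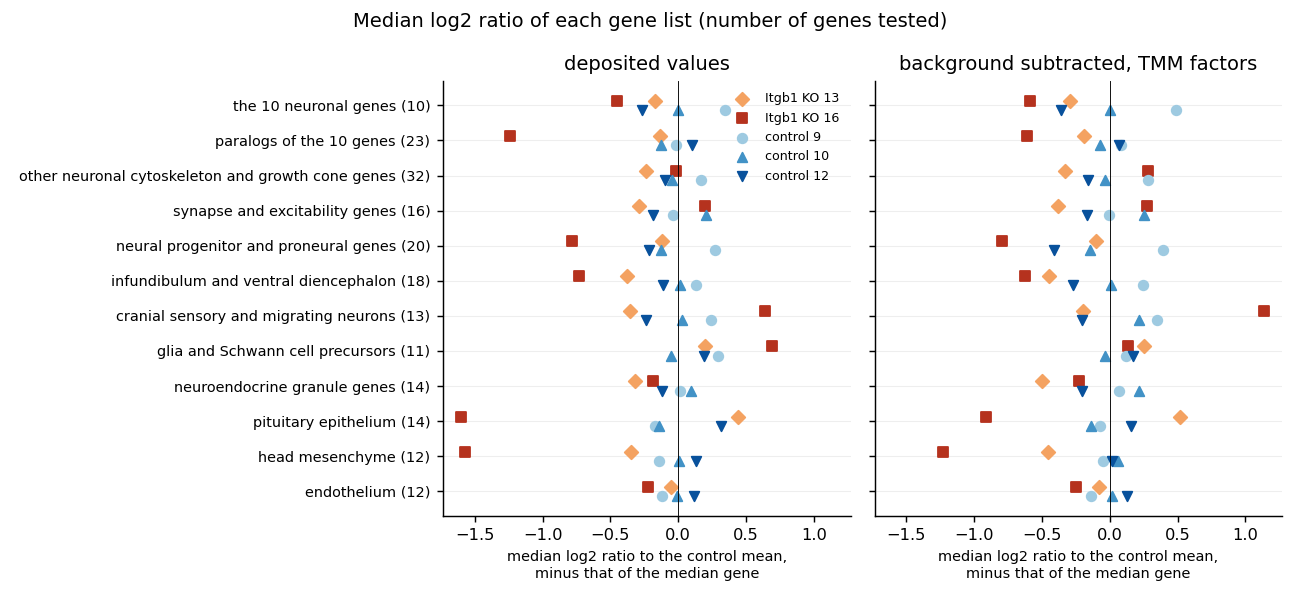
Median log2 ratio to the control mean of each gene list, minus that of the median gene, in every library, for deposited values (left) and for values with background subtracted and TMM factors (right). The 10 neuronal genes lie at -0.17 in library 13 and -0.45 in library 16 on the left, and the cranial sensory and migrating neuron list lies at 1.14 in library 16 on the right.

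The genes whose pattern over the 5 libraries was most like the median of the 10 genes were Ube2v1, Kif3c, Gm16845, Scube3 and Scly, out of 12532 genes with a mean of at least 20. Likeness was the root mean square distance of log2 ratios to the control mean, which was 0.075 for Ube2v1 and 0.090 for Scly. Ube2v1 was at 72.73 and 82.73 normalised tags in libraries 13 and 16, against 42.73, 56.36 and 33.64 in the controls. Dcx was the closest of the 10 genes to their median, at 0.177, and Islr2 the farthest, at 1.34.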

How the data were processed

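Total RNA of 2 knockout and 3 control pituitaries at e12.5 was depleted of ribosomal RNA and made into strand-specific libraries, per the labels' protocols. The labels name separate biological replicates. Bowtie2, HOMER, edgeR and build mm9 are named in the submitters' processing notes, with no roles. The authors deposited a signal per gene region, scaled to 10000000 tags a library per the file headers (21022 regions, 20097 symbols, longest region per symbol). Whole reads were recovered, since 100% of values were multiples of 10/11 (tolerance 0.01 reads), as for 11000000 tags. In a second table the authors deposited, for genes they list as changed, a log2 value, a linear fold change (a ratio), a p-value and a score per genotype without unit.

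Limma 3.58.1 (R 4.3.3) with a trend was fitted to log2(value + 1) of 19313 genes with a mean of at least 1, 2-sided, with Benjamini-Hochberg adjustment over all of them and a threshold of 0.05. This scale understates changes of low genes. The script was tested on simulated data. Alternatives were TMM factors and quasi-likelihood tests (edgeR 4.0.16), DESeq2 1.42.0, background subtraction, pseudocounts, filters, the shortest region and leaving out each library. Background was the tags per kilobase of 408 receptor genes, times region length, subtracted with a floor of 0. Poisson intervals at 95% are exact. The 10 genes, the lists and this background were chosen with earlier results of these data known. From each list the genes called, or else the 2 of highest level per kilobase, are named, with the 5 genes nearest in pattern. Itgb1 is named as the targeted gene, and Hmx3, Tlx3, Foxd3, Olig1, Ntrk3, Runx1 and Rn45s were named after their values were seen.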

Additional observations from a re-analysis of the deposited data

How the results depend on the processing

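Of 22 alternatives, 20 were fitted with limma, which called 0 of the 10 genes in all but one, a setting chosen after seeing the data. With background subtracted, TMM factors and without library 13 it called 721 genes higher and 1985 lower, among them 2 of the 10, Map2 and Islr2. The call of Islr2 is no test, since the gene was chosen for this difference. The edgeR count test called 0 of the 10, and DESeq2 gave 8 of the 9 genes other than Islr2 no adjusted p. The genes called lower numbered 1 with background subtracted and 25 with DESeq2. The median relative log2 change of the 10 genes was 0.04. It ranged from -0.45 to 0.020 with each library left out in turn. With background from long regions, chosen after seeing the data, it was -0.28. With background subtracted, TMM factors and each library left out, it ranged from -0.58 (library 13 left out) to 0.059 (control 9), with -0.32, -0.54 and -0.30 without control 10, control 12 and library 16. Map2 and Nefl kept their sign in all 22 alternatives, Islr2 and Tubb3 in 21, and Stmn2 in 11 and Dcx in 8, both near 0 at first. For Islr2 that count is no test either, since the gene was chosen in these libraries. The cause of the moves between alternatives was not tested. No paired analysis was possible because the replicate numbers of the groups are not shared. A lone knockout library is assumed to vary like the controls. The knockout group has only 2 libraries, and library 16 carried 1.498 background tags per kilobase and the fewest reads. In library 16, levels of long regions such as Map2, Elavl4 and Gap43 rest on a small part above background. In library 13 expected background was 18.9% of the level for Map2, 55.2% for Elavl4 and 68.9% for Gap43.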
